A study of Rattus norvegicus with 10 samples.

Results

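The genes described here are the 8 MHC class II presentation genes Cd74, Ciita, RT1-Da, RT1-Db1, RT1-Ba, RT1-Bb, RT1-DMa and RT1-DMb, measured in rat testes. They were taken from probe sets annotated with 1 of these symbols and no other, with the brightest probe set by mean over the arrays kept where a gene had several. Each gene had 1 such probe set, so the 8 genes rest on 8 probe sets among 18166 named genes on the array. The series holds 10 Affymetrix arrays of whole testes, 1 per sample. All rats were described as 14 weeks old and sexually mature, and the Zucker (fa/fa) model, in which a mutated leptin receptor causes obesity, was given for every sample. The groups were under-developed obese testes with 4 arrays, normally developed obese testes with 4 arrays, and normally developed lean testes with 2 arrays. The lean animals carry the phenotype Lean beside the same fa/fa model entry, so their genotype is not settled by the labels. The labels call the arrays of a group biological replicates without naming an animal for each, and the few arrays per group limit the precision of every value.

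MHC class II molecules present peptides from taken-up and lysosomal proteins to CD4+ T cells, and are made mainly by macrophages, dendritic cells and B cells. An alpha and a beta chain pair in the endoplasmic reticulum around the invariant chain Cd74, endosomal proteases trim that chain to a short peptide, and DM, a heterodimer of RT1-DMa and RT1-DMb in the rat, exchanges the peptide for others. The transactivator Ciita has no DNA contact of its own and joins the RFX, CREB and NF-Y factors on the X and Y boxes of class II promoters. RT1-D and RT1-B are the classical class II molecules of the rat, counterparts of human HLA-DR and HLA-DQ. The interstitium of the testis holds a large population of resident macrophages.

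The promoters were read first, because the shared X and Y boxes are the feature by which these genes are known to be controlled together. Promoter windows (RefSeq, build GRCr8, 250 bases before to 50 bases after the annotated start) were given for 6 of the 8 genes, those of RT1-Da, RT1-Db1, RT1-Ba, RT1-Bb, RT1-DMa and Cd74. A motif pair was searched on both strands: GNNAC, standing for the core of the X box, then TGATTGG, standing for the Y box, with 22 to 28 bases between them. The letters and the spacing were set after these sequences had been read, so the count describes them and tests nothing. The stretch holding the pair is printed 5′ to 3′ on the strand of the gene with the pair in capitals. The 5 class II chain genes among the members that had a window come first, then the 4 other class II genes of the array. RT1-DMb, also a class II chain gene among the members, had no window.
RT1-Da (chr20:4515323-4515378, plus strand): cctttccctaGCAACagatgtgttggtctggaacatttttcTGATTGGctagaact
RT1-Db1 (chr20:4560230-4560284, minus strand): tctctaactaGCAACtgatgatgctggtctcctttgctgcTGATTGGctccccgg
RT1-Ba (chr20:4576971-4577026, plus strand): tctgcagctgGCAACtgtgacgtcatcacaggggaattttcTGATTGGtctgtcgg
RT1-Bb (chr20:4604167-4604221, minus strand): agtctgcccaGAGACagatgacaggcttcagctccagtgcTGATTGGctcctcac
RT1-DMa (chr20:4712387-4712442, minus strand): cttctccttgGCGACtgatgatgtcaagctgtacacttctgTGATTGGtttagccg
RT1-DOa (chr20:4758518-4758573, minus strand): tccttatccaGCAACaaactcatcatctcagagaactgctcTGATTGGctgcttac
RT1-DOb (chr20:4627594-4627646, minus strand): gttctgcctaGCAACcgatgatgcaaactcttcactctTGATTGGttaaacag
RT1-Ha (chr20:4772241-4772296, minus strand): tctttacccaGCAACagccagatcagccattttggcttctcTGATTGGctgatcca
RT1-Db2 (chr20:4541700-4541753, minus strand): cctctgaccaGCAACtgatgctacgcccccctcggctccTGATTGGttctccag

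The pair stood in 5 of the 6 member windows and in 4 of 4 windows of the other class II genes, against 203 of 33469 promoter windows of the genome (0.607%). TGATTGG alone stood in 7.06% of all windows. With GCAAC in place of GNNAC the pair stood in 3 of the 6 member windows (RT1-Da, RT1-Db1 and RT1-Ba), in 4 of 4 of the others and in 19 of all windows (0.0568%). RT1-Bb carried GAGAC and RT1-DMa carried GCGAC at that place. The first base of the X motif lay between positions -112 (RT1-Db1) and -76 (RT1-Ba) from the start among these members. The window of Cd74 held no such pair, and is shown for contrast with its GCAAC, at position -70, and a CCAAT, the reverse complement of the ATTGG of a Y box, in capitals.
Cd74 (chr18:56526987-56527148, plus strand): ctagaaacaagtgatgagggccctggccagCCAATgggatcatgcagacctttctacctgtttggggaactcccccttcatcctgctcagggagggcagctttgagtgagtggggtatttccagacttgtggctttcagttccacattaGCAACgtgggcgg
A missing match says only that these letters do not stand in that window. Single motifs of this length are common, with GCAAC in 35.1% of all windows and ATTGG in 37.5%.

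**Figure D1:**
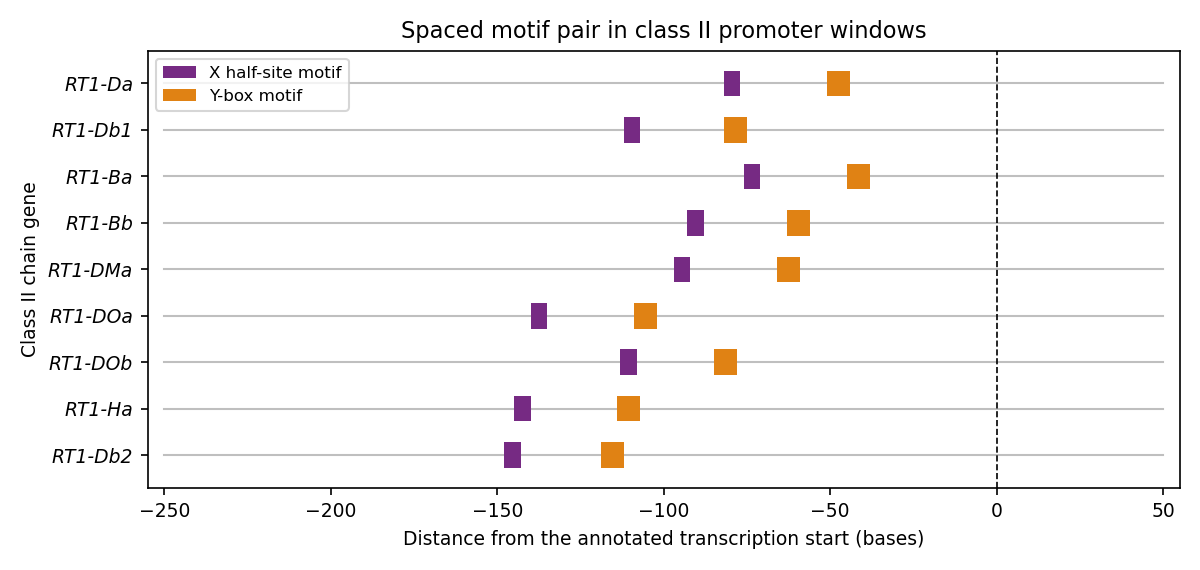
Place of the X motif (purple) and the Y-box motif (orange) relative to the annotated transcription start (x axis, bases; dashed line, the start) in the promoter windows of 9 class II chain genes (grey lines). The motif pair keeps 23 to 26 bases between its parts in these windows, while its distance from the start differs between genes.

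Arrays of under-developed testes did not form a single group. Those of replicates 1 to 3 stood apart from the 6 arrays of normal testes to unlike degrees. Their Pearson r over all genes with the normal arrays was 0.845 to 0.862, 0.939 to 0.950 and 0.720 to 0.737. Replicate 2 was thus nearer to the normal arrays than to replicate 3 (r = 0.874), and had r = 0.962 with replicate 1. The array labelled under-developed replicate 4 lay among the normal arrays, with r = 0.995 against normal obese replicate 4. The spermatid markers show the same order: relative to the normal obese mean, the log2 mean of the list stood at -2.62, -0.74, -4.41 and -0.05 in under-developed replicates 1 to 4. All tests are therefore given with and without replicate 4, whose omission was singled out after these values had been seen. On the log2 scale the spermatid list averaged 12.17 to 12.21 in normal obese and 12.16 to 12.20 in normal lean testes. It averaged 7.77 to 11.44 in under-developed replicates 1 to 3 and 12.14 in replicate 4, so it did not set replicate 4 clearly apart from normal testes. The values are log2 intensities, on which 1 unit is a 2-fold difference, and levels of different probe sets are not set against each other.

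Without replicate 4, 6 of the 8 genes rose in under-developed against normal obese testes: the invariant chain Cd74 and RT1-Da by about 3 log2 units, RT1-DMb, RT1-Db1 and RT1-Ba by 1.05 to 1.42, and RT1-DMa by 0.48, on the deposited scale, whereas with arrays centred on Sertoli or macrophage genes RT1-DMa was lower and RT1-Db1, RT1-Ba and RT1-DMb did not pass. RT1-Bb and the transactivator Ciita did not pass the test on the deposited scale. Both were lower than in normal obese testes with ribosomal, Sertoli or macrophage centring (limma adjusted p below 0.05 each, without replicate 4). RT1-Bb was also lower once the array medians were made equal (-0.48; limma adjusted p = 0.029). On the deposited scale without replicate 4, 29.6% of all genes rose and 26.4% fell, so a rise as such was common. The median difference there was 1.15 over the 8 genes against 0.07 over all genes. After ribosomal, Sertoli and macrophage centring the median of the 8 was 0.33, -0.19 and -0.16, against -0.76, -1.27 and -1.24 over all genes. The sign for the 8 genes as a set thus depended on the scale. With all 4 under-developed arrays on the deposited scale, none of the 8 genes and none of the 18166 genes passed (0% called; smallest adjusted p = 0.0702, limma with Benjamini-Hochberg adjustment). At an unadjusted p under 0.05 the same fit gave 5 of the 8 genes higher and 1 lower, where 24.4% of all genes were higher and 22.3% lower. In whole tissue, more cells of a type and more RNA per cell cannot be told apart.

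Cd74 encodes the invariant chain, the chaperone that fills the groove of new class II molecules and steers them to endosomes. It measured 12.62, 11.29, 12.51 and 9.01 in under-developed replicates 1 to 4, against 9.28, 9.05, 9.22 and 8.99 in normal obese testes and 9.20 and 8.55 in normal lean testes. Replicates 1 to 3 lay above all 6 normal arrays by at least 2 log2 units, and replicate 4 lay within the normal range. Without replicate 4 the difference from normal obese testes was 3.01 ± 0.31 (SE; 8.05-fold; limma adjusted p = 1.32e-04). With it the difference was 2.23 ± 0.70 (adjusted p = 0.0702).

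RT1-Da, the alpha chain of RT1-D, followed the invariant chain closely. It measured 10.63, 9.08, 10.54 and 7.10 in under-developed replicates 1 to 4, against 7.05, 7.04, 6.95 and 6.85 in normal obese testes and 7.30 and 6.59 in normal lean testes. As for Cd74, replicates 1 and 3 were highest, replicate 2 lay between them and the normal arrays, and replicate 4 did not leave the normal range. The difference without replicate 4 was 3.11 ± 0.36 (8.64-fold; limma adjusted p = 1.94e-04), and with it 2.37 ± 0.69 (adjusted p = 0.0702).

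RT1-Db1, the beta chain that pairs with RT1-Da, moved less. Its mean in normal obese testes, 5.73, lay near the 25th percentile of all genes, 5.70. Whether a dim probe set limited its difference was not tested. It measured 6.95, 6.34, 7.65 and 5.97 in under-developed replicates 1 to 4, against 5.73, 5.61, 5.73 and 5.83 in normal obese testes and 6.11 and 5.81 in normal lean testes. Here replicate 3 was the highest, replicates 1 to 3 cleared all normal arrays, and replicate 4 lay above the normal obese arrays and below 1 of the lean arrays. The difference without replicate 4 was 1.25 ± 0.26 (2.38-fold; limma adjusted p = 0.00346), and with it 1.00 ± 0.32 (adjusted p = 0.0702).

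RT1-B is the other classical class II molecule. RT1-Ba, its alpha chain, measured 7.17, 6.37, 7.41 and 5.69 in under-developed replicates 1 to 4, against 5.94, 6.06, 5.92 and 5.82 in normal obese testes and 6.02 and 5.87 in normal lean testes. Replicates 1 to 3 lay above every normal array and replicate 4 below every normal array. RT1-Ba rose by 1.05 ± 0.22 without replicate 4 (2.07-fold; limma adjusted p = 0.00363), and the difference with it was 0.73 ± 0.33 (adjusted p = 0.117).

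RT1-Bb, the beta chain of RT1-B, measured 7.24, 7.46, 7.24 and 7.30 in under-developed replicates 1 to 4, against 7.33, 7.81, 7.87 and 7.76 in normal obese testes and 7.42 and 7.71 in normal lean testes. All 4 under-developed arrays, replicate 4 among them, lay below the normal obese mean, but the groups overlapped because replicate 1 of the normal obese testes was also low. The difference was -0.38 ± 0.15 without replicate 4 (95% interval -0.73 to -0.03; limma adjusted p = 0.0629) and -0.38 ± 0.14 with it (adjusted p = 0.0754). Class II chain genes are polymorphic between rat strains and have close relatives in the same region, and the probe sequences were not used here, so mismatch with the alleles of these rats was not tested for any of the chains.

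The DM chains rose unequally. RT1-DMb, the beta chain of the peptide exchanger, measured 7.92, 6.82, 7.65 and 5.83 in under-developed replicates 1 to 4, against 6.06, 6.01, 5.96 and 6.15 in normal obese testes and 6.01 and 5.80 in normal lean testes. It rose by 1.42 ± 0.23 without replicate 4 (2.67-fold; limma adjusted p = 9.68e-04), and the difference with it was 1.01 ± 0.39 (adjusted p = 0.0823). Replicates 1 to 3 did not overlap the normal arrays, and replicate 4 was below all 4 normal obese arrays.

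RT1-DMa, the alpha chain of DM, measured 7.85, 7.30, 7.69 and 7.44 in under-developed replicates 1 to 4, against 7.36, 7.06, 7.04 and 7.09 in normal obese testes and 7.16 and 7.19 in normal lean testes. Replicates 1, 3 and 4 lay above every normal array, while replicate 2 fell below normal obese replicate 1, which stood apart from the other 3 arrays of its group. RT1-DMa rose by 0.48 ± 0.15 without replicate 4 (1.39-fold; limma adjusted p = 0.0224), and the difference with it was 0.43 ± 0.14 (adjusted p = 0.0702).

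Ciita, the transactivator on which inducible class II transcription depends, measured 5.60, 5.32, 5.77 and 5.75 in under-developed replicates 1 to 4, against 5.35, 5.47, 5.49 and 5.51 in normal obese testes and 5.49 and 5.53 in normal lean testes. The groups overlapped, with under-developed replicate 2 the lowest of all 10 arrays and replicates 1, 3 and 4 the 3 highest. The difference was 0.11 ± 0.12 without replicate 4 (95% interval -0.17 to 0.38; limma adjusted p = 0.485) and 0.15 ± 0.12 with it (adjusted p = 0.331). Its probe set was dim, with a mean below the 25th percentile of all genes, 5.70, in normal obese testes (5.45 ± 0.07, SD, n = 4).

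**Figure D2:**
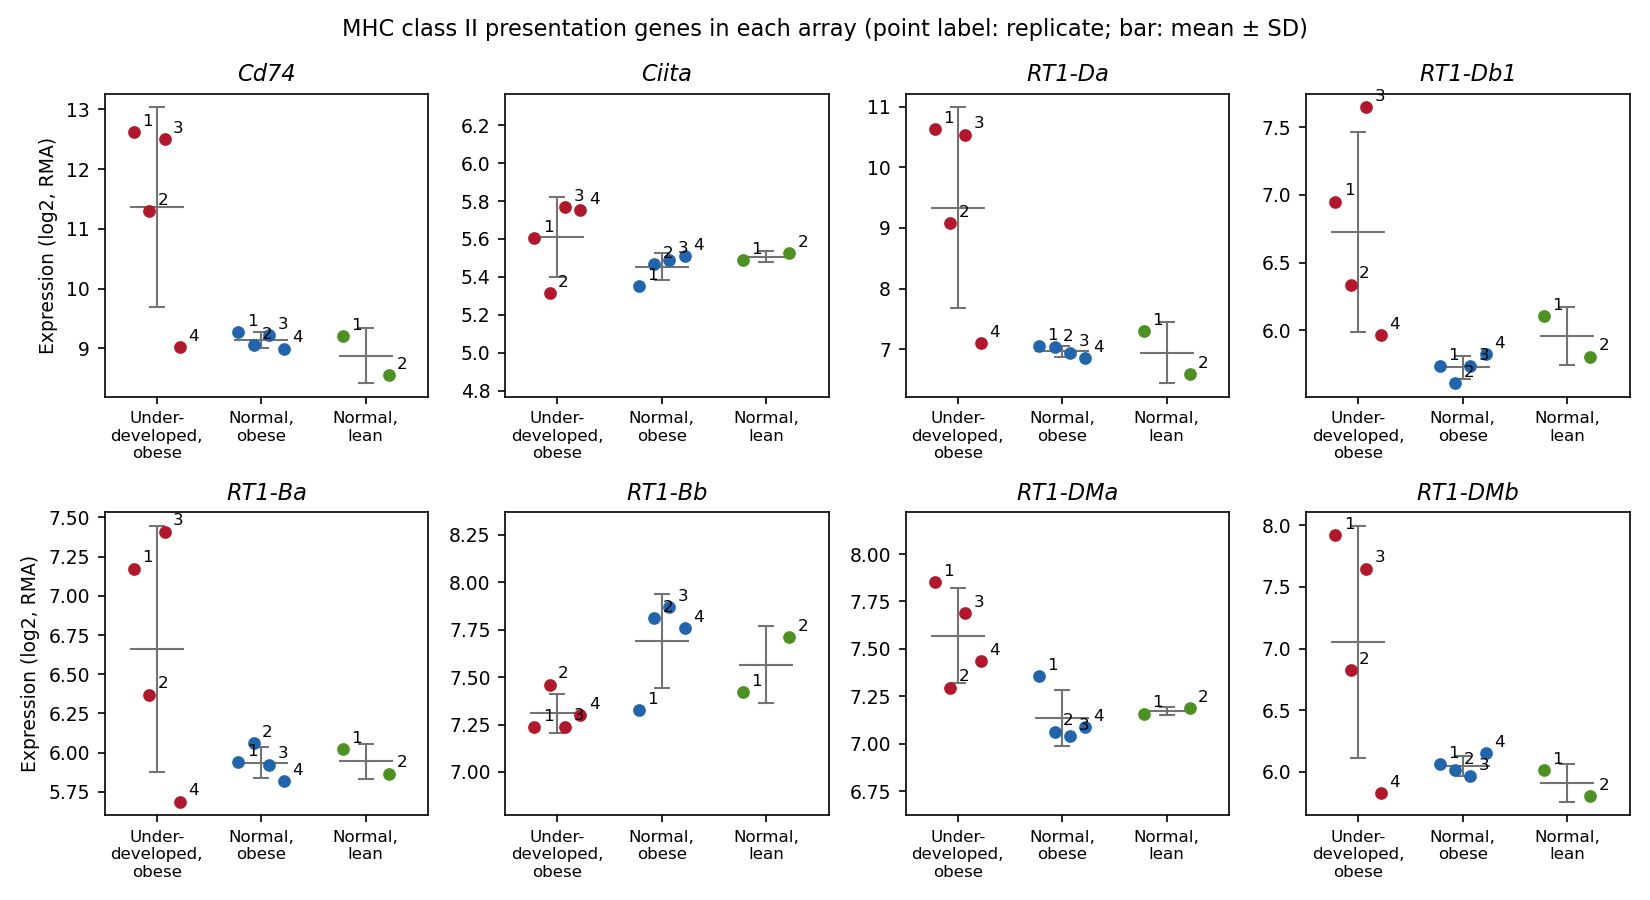
Expression of the 8 class II presentation genes (y axis, log2 RMA value, a separate scale for each gene) in under-developed obese (red), normal obese (blue) and normal lean (green) testes, 1 point per array labelled with its replicate, with group means and SD as bars (n = 4, 4 and 2). Under-developed replicates 1 to 3 lie above all 6 normal arrays for Cd74, RT1-Da, RT1-Db1, RT1-Ba and RT1-DMb on this deposited scale, replicate 4 does so only for Ciita and RT1-DMa, and RT1-Bb is the gene whose under-developed mean is lower.

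Across the under-developed arrays, replicates 1 to 3 lay above all 6 normal arrays for 5 of the 8 genes, against 28.7% of all genes, and below them for none of the 8 (26.7% of all genes). At least 2-fold above the normal obese mean were 5 of the 8 genes in replicate 1 (15.5% of all genes), 2 in replicate 2 (7.56%), 5 in replicate 3 (19.2%) and 0 in replicate 4 (0.0385%). The 2 genes in replicate 2 were Cd74 and RT1-Da. Replicate 2 was the lowest of replicates 1 to 3 for 7 of the 8 genes, all but RT1-Bb, while 48.5% of all genes had their lowest value there. Replicate 4 was above all 4 normal obese arrays for 4 of the 8 genes (23.7% of all genes) and below them for 3 (25.6%), so it showed no common direction for the class II genes.

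Against normal lean testes the same under-developed arrays again had their largest differences in Cd74 and RT1-Da. Without replicate 4, 5 of the 8 genes rose, where 25.6% of all genes rose and 23.2% fell: Cd74 by 3.27 ± 0.37, RT1-Da by 3.14 ± 0.43, RT1-DMb by 1.56 ± 0.27, RT1-Ba by 1.04 ± 0.26 and RT1-Db1 by 1.02 ± 0.31 (SE; limma adjusted p from 3.38e-04 to 0.0245). RT1-DMa did not pass there (0.44 ± 0.18; adjusted p = 0.0679), nor did RT1-Bb (-0.25 ± 0.18; adjusted p = 0.290) or Ciita (0.06 ± 0.14; adjusted p = 0.784). With replicate 4 none of the 8 genes and 0% of all genes passed (limma adjusted p of the 8 from 0.154 to 0.635), and at an unadjusted p under 0.05 the fit had 4 of the 8 higher, against 17.5% of all genes. This comparison shares its under-developed arrays with the preceding one and is no separate support for it.

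Obese and lean rats with normally developed testes were compared to see whether the class II genes differ with the phenotype of the animal alone. None of the 8 genes and 0% of all genes passed (limma), and at an unadjusted p under 0.05 none of the 8 and 80 of all genes (0.44%) did. Differences of normal obese from normal lean testes ran from -0.23 (RT1-Db1) to 0.26 (Cd74), and for all 8 genes the arrays of the groups overlapped. With 2 lean arrays the intervals were wide, from -1.67 to 2.19 for Cd74, from -1.88 to 1.93 for RT1-Da and from -0.38 to 0.28 for Ciita. The lean arrays themselves differed in Cd74 (9.20 and 8.55) and RT1-Da (7.30 and 6.59) by more than the 4 normal obese arrays did, whose highest and lowest values were 0.28 apart for Cd74 and 0.20 for RT1-Da.

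The scale on which arrays were compared mattered for the smaller rises. The deposited values were normalized to a common distribution, and most Sertoli, macrophage and ribosomal protein genes measured rose in the same arrays in which most spermatid genes fell. Without replicate 4, centring each array on its median gave Cd74, RT1-Da, RT1-Db1, RT1-Ba and RT1-DMb higher and RT1-Bb lower by limma, where 24.7% of all genes were higher and 29.8% lower. Centring on 36 ribosomal protein genes placed the median of all genes at -0.76 and left Cd74, RT1-Da and RT1-DMb higher and Ciita, RT1-Bb and RT1-DMa lower (10.9% of all genes higher, 73.2% lower). Centring on 17 Sertoli cell genes (median of all genes -1.27; 5.19% higher, 86.5% lower) or on 19 macrophage genes (median -1.24; 5.02% higher, 84.7% lower) left Cd74 and RT1-Da higher and the same 3 genes lower. Cd74 and RT1-Da were thus higher under each of these scalings, and RT1-Bb was lower than the normal obese mean under each.

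Members that work as a pair were also compared within each array, a difference that centring cannot move. Each value below is the difference between 2 log2 values of an array, counted from its mean in normal obese testes. RT1-Da gained on RT1-Db1 by 2.43, 1.50, 1.65 and -0.11 in under-developed replicates 1 to 4, against -0.22 to 0.18 in normal obese testes. RT1-Ba gained on RT1-Bb by 1.69, 0.67, 1.93 and 0.15, against -0.19 to 0.37 in normal obese testes, and RT1-DMb gained on RT1-DMa by 1.16, 0.62, 1.05 and -0.52, against -0.21 to 0.15. Replicates 1 to 3 therefore lay above the normal obese arrays in each of these pairs. Whether an unlike response of the 2 probe sets of a pair has a part in these differences was not tested.

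Cd74 gained on Ciita by 3.34, 2.30, 3.06 and -0.42 in under-developed replicates 1 to 4, against -0.20 to 0.25 in normal obese testes. It also gained on the mean of the macrophage genes, by 1.98, 1.25, 1.87 and -0.04, against -0.14 to 0.16 in normal obese testes. That mean covers 19 genes, of which 15 rose, 2 fell and 2 did not pass without replicate 4. Lyz2, 1 of the 19, had a larger difference than Cd74, so Cd74 did not gain on every macrophage gene. The 5 differences within arrays were chosen after the data had been seen. In two-sided exact permutation tests of 4 against 4 arrays their p ran from 0.0571 to 0.2 (Benjamini-Hochberg adjusted over the 5, 0.179 to 0.2), with 0.0286 the smallest possible. Without replicate 4 each gave an exact permutation p of 0.0571, the smallest that 3 against 4 arrays allow.

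**Figure D3:**
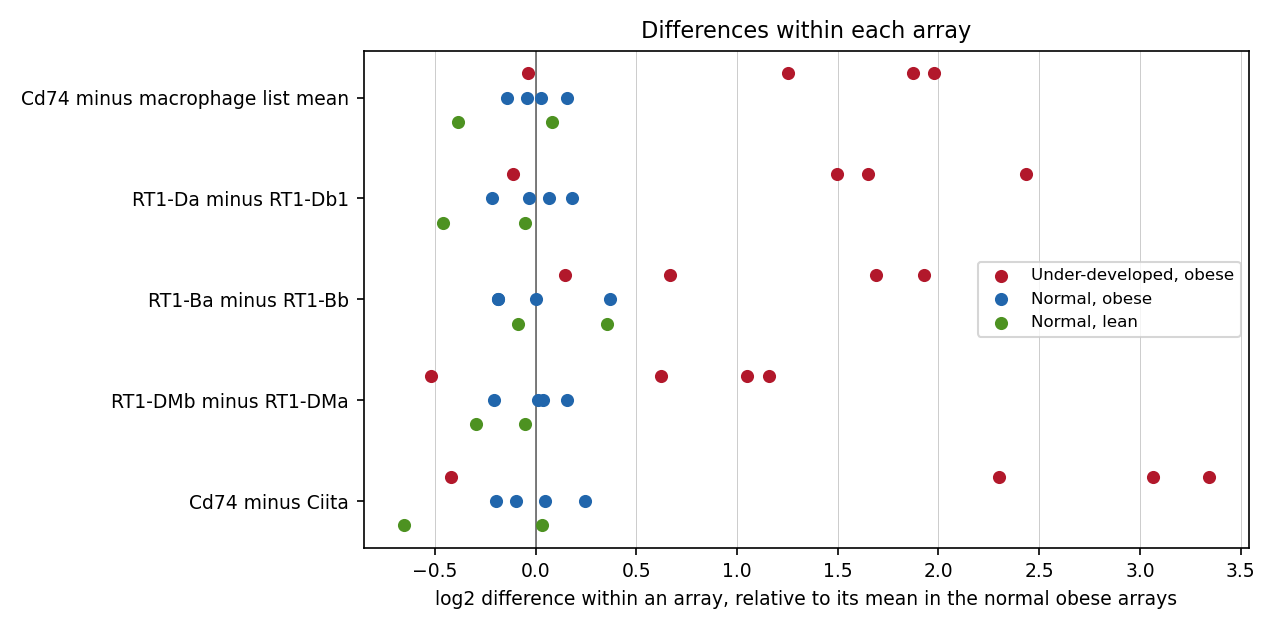
Difference between 2 log2 values of the same array (x axis, log2 units, relative to the mean of that difference in the normal obese arrays) for 5 pairs, 1 point per array, in under-developed obese (red), normal obese (blue) and normal lean (green) testes. In each pair 3 red points lie to the right of all blue and green points and 1, replicate 4, lies near or left of 0 or, for RT1-Ba minus RT1-Bb, at 0.15.

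The other class II chain genes of the array, whose promoter windows also hold the motif pair, moved little on the deposited scale. In normal obese testes RT1-DOa (5.31), RT1-DOb (5.54) and RT1-Ha (4.95) lay below the 25th percentile of all genes, 5.70, and RT1-Db2 measured 5.88. Whether dim probe sets limited their differences was not tested. RT1-DOa, the alpha chain of the DM inhibitor DO, rose by 0.51 ± 0.16 without replicate 4 (limma adjusted p = 0.0228). It was the single call among 4, where 29.6% of all genes rose and 26.4% fell. RT1-DOb, the DO beta chain, differed by 0.18 (adjusted p = 0.212), RT1-Db2 by 0.22 (adjusted p = 0.234) and RT1-Ha by 0.13 (adjusted p = 0.295). The median over the 4 was 0.20 on the deposited scale and below 0 after centring on ribosomal (-0.62), Sertoli (-1.14) or macrophage genes (-1.11).

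Chromosome order in RefSeq places RT1-Da first and RT1-Ha last in a run of 17 genes, of which 15 were measured, 6 of them among the members. Without replicate 4, 10 of the 15 rose, 1 fell and 4 did not pass on the deposited scale, where 29.6% of all genes rose and 26.4% fell. Between RT1-DOb and RT1-DMb lie the class I genes Tap2 and Tap1, which form the peptide transporter into the endoplasmic reticulum, and Psmb8 and Psmb9, subunits of the immunoproteasome. Psmb8 differed from the normal obese mean by 2.84, 2.03, 3.48 and -0.42 in under-developed replicates 1 to 4 (2.78 ± 0.29 without replicate 4; limma adjusted p = 1.36e-04). Tap1, Tap2 and Psmb9 rose by 1.53, 1.59 and 2.25. Brd2, which encodes a chromatin reader outside antigen presentation, was the gene that fell, by 0.70 ± 0.09 (adjusted p = 4.00e-04). Measured neighbours in this run did not all share a direction on the deposited scale, since Brd2 lies between RT1-DMa and RT1-DOa, which rose. RT1-Bb and RT1-DOb, which did not pass, lie between RT1-Ba and Tap2, which rose. A test not passed does not show that a gene stayed level.

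**Figure D4:**
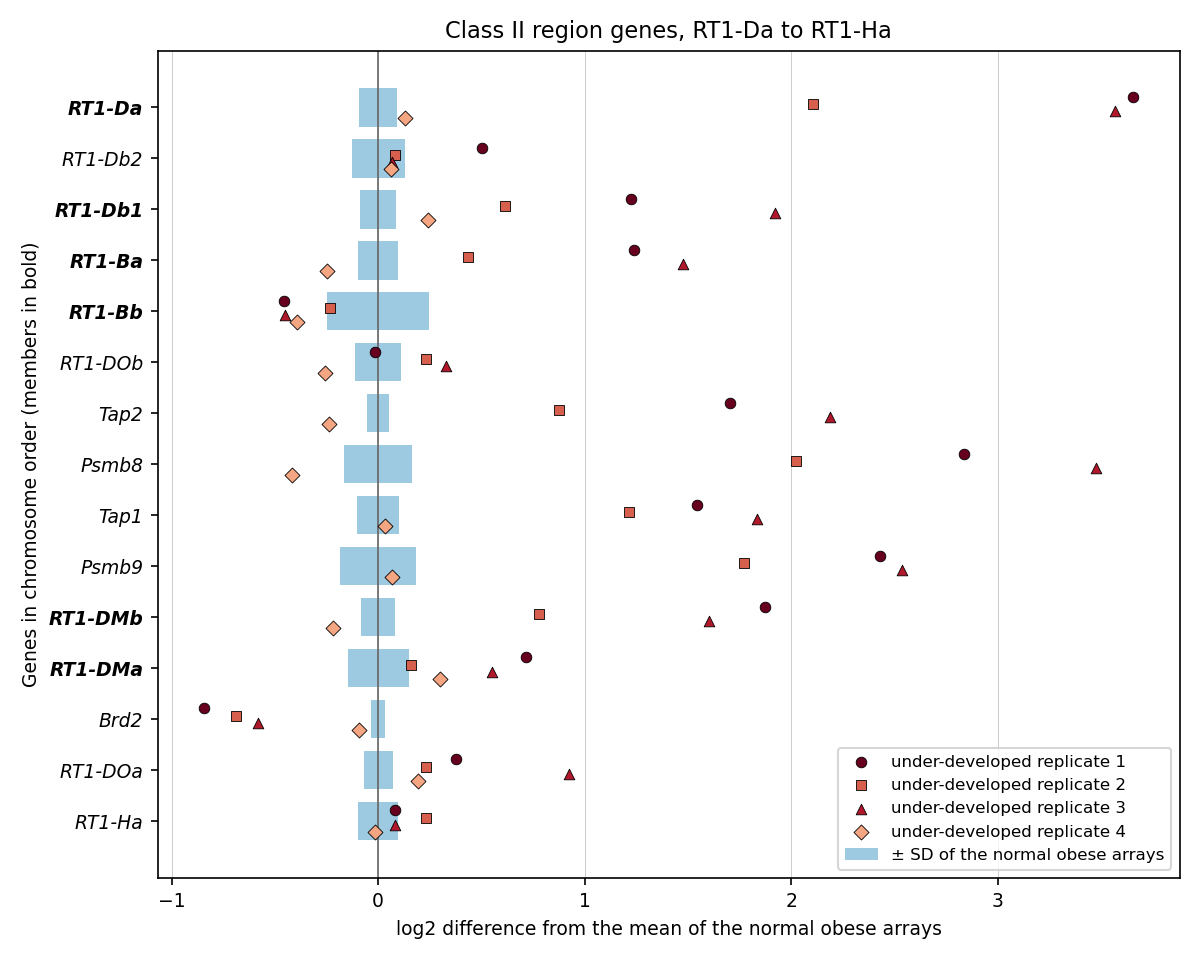
Difference of each under-developed array from the normal obese mean (x axis, log2 units, deposited scale) for the 15 measured genes of the class II region in chromosome order (top to bottom, members in bold), with the SD of the 4 normal obese arrays as blue bands. Psmb8 and RT1-Da have their replicates 1 and 3 beyond 2.8 and RT1-Bb and Brd2 theirs below 0, while replicate 4 stays within 0.42 of the normal obese mean for each gene.

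Of 16 measured genes of the class II transcription machinery and its interferon input, 10 rose, 4 fell and 2 did not pass without replicate 4 (29.6% and 26.4% of all genes), with a median of 0.41 that turned to -0.41 on the ribosomal scale. Both chains of the interferon gamma receptor rose, Ifngr2 by 2.20 ± 0.14 and Ifngr1 by 2.16 ± 0.22, as did Irf1, a transcription factor that interferon gamma induces, by 1.96 ± 0.24 (limma adjusted p below 0.05 each). Irf2 rose by 2.04 ± 0.20 and Usf1, an E-box factor, by 2.09 ± 0.22. The gene of the ligand itself, Ifng, fell by 0.63 ± 0.17 (adjusted p = 0.0117). Among the subunits of the promoter complex, Nfya, Nfyb and Nfyc of the Y-box factor rose by 0.44, 0.39 and 0.39, the RFX subunit Rfxank fell by 0.73 and Creb1 fell by 0.62, while Rfx5 (0.22; adjusted p = 0.212) and Rfxap (0.27; adjusted p = 0.0898) did not pass.

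Endosomal processing and class II traffic showed a high median difference, 1.96 over 14 measured genes against 0.07 over all genes, and its median stayed above 0 under ribosomal (1.14), Sertoli (0.63) and macrophage (0.66) centring. Without replicate 4, 12 of the 14 rose and none fell, where 29.6% of all genes rose and 26.4% fell. Lgmn, the asparaginyl endopeptidase that cuts antigens and the invariant chain, differed by 3.35, 2.46, 3.54 and 0.02 in under-developed replicates 1 to 4 (3.12 ± 0.24 without replicate 4). Ctss, the cathepsin that trims the invariant chain in antigen-presenting cells, differed by 3.12, 1.79, 2.71 and -0.13 (2.54 ± 0.34). Ctsb, Ctsd and Ctsc rose by 2.80, 2.41 and 2.16 (limma adjusted p below 0.05 each). Marchf1 (0.48; adjusted p = 0.0667) and Marchf8 (0.27; adjusted p = 0.471), ubiquitin ligases that remove class II from the surface, did not pass. Many of these proteases are also made outside antigen-presenting cells: Ctsl stands in both this list and the Sertoli list.

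Class I presentation moved in the same arrays. Of 21 measured genes 17 rose, none fell and 4 did not pass without replicate 4 (29.6% of all genes rose and 26.4% fell). Their median of 1.59 stayed above 0 under ribosomal (0.77), Sertoli (0.25) and macrophage (0.28) centring. Erap1, which trims peptides in the endoplasmic reticulum, rose by 2.98 ± 0.21, the class I light chain B2m by 2.40 ± 0.19, and the proteasome activator Psme1 by 2.44 ± 0.32 (limma adjusted p below 0.05 each). Nlrc5, the class I counterpart of Ciita, differed by 0.21 ± 0.15 (adjusted p = 0.269), and like Ciita did not pass on the deposited scale. Of 7 costimulatory genes, where 29.6% of all genes rose and 26.4% fell, 3 rose, Cd276 by 1.50, Cd86 by 0.95 and Cd80 by 0.72, 1 fell, Pdcd1lg2 by 0.86, and Cd40 (0.23; adjusted p = 0.150) was among the 3 that did not pass.

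Markers of cells that make class II molecules moved unequally with the members. Of 19 macrophage genes 15 rose, 2 fell and 2 did not pass without replicate 4 (29.6% of all genes rose and 26.4% fell). Lyz2 rose by 3.35 ± 0.49, Cd163 by 2.86 ± 0.30, C1qa by 2.63 ± 0.21, Cd68 by 2.39 ± 0.29 and Csf1r by 2.30 ± 0.31, whereas Aif1 fell by 1.25 and Cx3cr1 by 0.93 (limma adjusted p below 0.05 each). The macrophage list mean was 7.84 to 8.45 in under-developed replicates 1 to 3 and 6.85 in replicate 4, against 6.77 to 7.12 in normal obese and 6.74 to 6.92 in normal lean testes. Array values have no true zero, so no marker can be called absent.

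Of 10 dendritic cell genes 2 rose, Clec10a by 2.14 and Ly75 by 1.12, Flt3 fell by 0.35 and 7 did not pass (29.6% of all genes rose and 26.4% fell), among them Xcr1 (0.01; adjusted p = 0.954) and Itgax (0.29; adjusted p = 0.102). Their list mean was 6.53 to 7.00 in under-developed replicates 1 to 3 and 6.55 in replicate 4, against 6.44 to 6.48 in normal obese and 6.42 to 6.46 in normal lean testes. Of 7 B cell genes Cd79a rose by 0.93, Ms4a1 fell by 0.55 and 5 did not pass, against the same shares of all genes. The B cell list mean was 6.05 to 6.27 in under-developed replicates 1 to 3 and 6.36 in replicate 4, against 6.20 to 6.31 in normal obese and 6.25 to 6.30 in normal lean testes. Of 11 T cell genes 4 rose, near the 29.6% of all genes that did, Cd4 by 1.77, Cd2 by 0.76, Cd247 by 0.61 and Cd3g by 0.49, and Lck fell by 0.56. The T cell list mean was 5.97 to 6.21 in under-developed replicates 1 to 3 and 5.82 in replicate 4, against 5.69 to 5.84 in normal obese and 5.66 to 5.79 in normal lean testes. Cd4 is the receptor partner of class II and is also made by rat macrophages.

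Other cell types moved in these arrays as well. Without replicate 4, 13 of 17 Sertoli genes, 7 of 9 Leydig genes and 6 of 7 endothelial genes rose, and 11 of 12 spermatid genes fell. Of all genes 29.6% rose and 26.4% fell. The Sertoli list mean differed from the normal obese mean by 1.42, 1.05, 1.54 and 0.02 in under-developed replicates 1 to 4. The macrophage list mean differed by 1.51, 0.91, 1.50 and -0.08, and that of the 8 class II genes by 1.49, 0.74, 1.54 and -0.0017. Cd74 and RT1-Da had the largest differences of the 8 in replicates 1 to 3. Medians were 1.23, 0.52, 1.54 and 0.0053 over the 8 and 1.44, 0.79, 1.54 and -0.08 over the macrophage genes. Among neutrophil genes 1 of 8 rose and 1 fell, and among 6 mast cell genes none passed. The part of these shifts in cell markers in the class II differences was not tested.

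**Figure D5:**
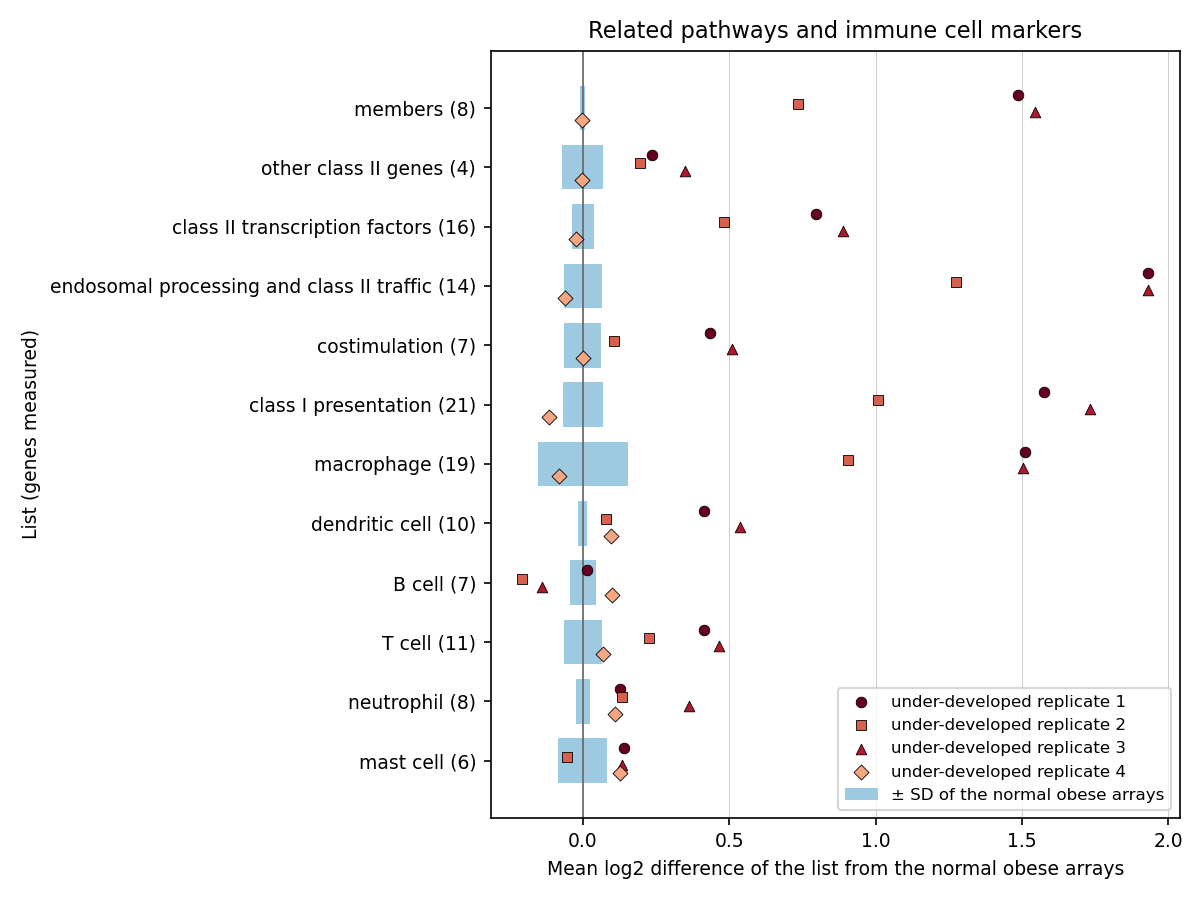
Mean difference from the normal obese arrays (x axis, log2 units, deposited scale) of the 8 class II genes, of 5 lists of related genes and of 6 immune cell marker lists in each under-developed array, with the SD of the list mean over the 4 normal obese arrays as blue bands (number of measured genes in brackets). Endosomal, class I, macrophage and class II genes lie between 0.74 and 1.93 in replicates 1 to 3, whereas B cell genes lie between -0.21 and 0.02.

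Genes with the most similar pattern were taken by Pearson's r with each member over the 10 arrays, 3 per member, as a description: the arrays share the separation of replicates 1 to 3 from the other 7, which ties many genes together. Cd74 was nearest to Nedd4 (r = 0.999), Crim1 (0.999) and Cltc (0.998), the clathrin heavy chain, and RT1-Da to Mta3, Nck2 and the chemokine gene Ccl6 (0.998 each). RT1-DMb was nearest to Naaa (0.999), Ssr4 (0.996) and Lamtor3 (0.995). RT1-Db1 was nearest to Ric1 (0.995), Tmem87b and Med12l, and RT1-Ba to Plgrkt (0.993), Sbno2 and Mapk9. The likeness was lower for the genes that moved least: RT1-DMa with C8h11orf52 (0.971), Mcoln2 and Emd, Ciita with Ly6g5c (0.935), Syngr1 and Vom1r47, and RT1-Bb with Oog1 (0.926), Cenpv and Trim67. None of the 8 members was counted as a neighbour of another. Ccl6 differed from the normal obese mean by 3.07, 1.92, 3.22 and -0.07 in under-developed replicates 1 to 4, close to the values of RT1-Da (3.66, 2.11, 3.57 and 0.13).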

How the data were processed

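Total RNA of whole testes was labelled with biotin and hybridised to Affymetrix rat arrays, per the labels' protocols. The deposited values are log2 expression values per probe set, made by RMA per the submitters' processing notes; its settings, software version and genome build are not given in the sources used here. RMA corrects background and normalizes arrays to a common distribution, so a change in tissue make-up can shift all other genes. Of 36685 probe sets, 18511 had 1 gene symbol, 575 several and 17599 were unnamed here; 18394 matched the RefSeq table of GRCr8, used for names and gene order. The brightest was used for the 291 genes with several, giving 18166 genes; dim genes stayed in.

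Groups came from sample titles. limma 3.58.1 (R 4.3.3, lmFit and eBayes) was fitted to all 10 arrays with a mean per group, with Benjamini-Hochberg adjustment over all genes (threshold 0.05). Values without replicate 4 come from a separate fit of the same model to the remaining arrays of the 3 groups. Each other scale or choice of arrays was also fitted anew. The fit was tested on simulated data in which all 4 under-developed arrays shifted alike, with a spread based on the normal obese arrays. That test does not cover an array that differs from its group, as under-developed replicate 4 does. The labels do not say that replicates came from separate animals, so the spread behind a p-value is that between these samples and may be technical. The members, gene lists and tests were chosen with earlier results of these data known. Named genes are the members, up to 5 genes per list with the largest absolute difference, and 3 genes per member by Pearson's r; other list genes were named after their values were seen. Plots were made with Python 3.11.15 and matplotlib 3.10.9. No slide or scan date was used here.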

Additional observations from a re-analysis of the deposited data

Results flagged for a closer look

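RT1-DMa in normal obese testes had an array that stood apart: replicate 1 was the highest, and its gap to the next array took 0.849 of the range of the group, above Dixon's 95% critical value for 4 arrays. It was 1 of 16 groups of 4 arrays tested, and chance gives about 1 in 20. The same array had the lowest RT1-Bb and Ciita values of its group.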

How the results depend on the processing

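The class II results rest on which arrays count as under-developed and on the scale. Against normal obese testes, the calls went from 0 of 8 members and 0 genes to 6 members and 9862 genes with array weights, to 4 members and 13240 genes (348 higher, 12892 lower) with Sertoli centring, and to 3 members and 8088 genes (295 higher, 7793 lower) with macrophage centring. Leaving out 1 array at a time gave 0 to 10171 genes and 0 to 6 members, with calls only without under-developed replicate 4. Against normal lean testes array weights gave 9620 genes and 6 members, and leaving out 1 array 0 to 8866 genes and 0 to 5 members, with calls again only without that array. For normal obese against normal lean testes, array weights and the fit of the 2 groups alone called 1 gene each, no member.

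Directions turned as follows (log2). For under-developed minus normal obese testes, ribosomal centring gave Ciita -0.42 and RT1-DMa -0.14; Sertoli centring gave Ciita -0.85, RT1-Db1 -0.0091, RT1-Ba -0.28 and RT1-DMa -0.58; macrophage centring gave Ciita -0.80, RT1-Ba -0.23 and RT1-DMa -0.53. Without replicate 4, alternatives chosen after seeing the data, ribosomal centring gave Ciita -0.72 and RT1-DMa -0.35, Sertoli centring Ciita -1.23, RT1-Db1 -0.086, RT1-Ba -0.29 and RT1-DMa -0.86, and macrophage centring Ciita -1.20, RT1-Db1 -0.055, RT1-Ba -0.26 and RT1-DMa -0.83. For under-developed minus normal lean testes, ribosomal centring gave Ciita -0.57 and RT1-DMa -0.28, Sertoli centring Ciita -0.95, RT1-Db1 -0.29, RT1-Ba -0.34 and RT1-DMa -0.66, and macrophage centring Ciita -0.96, RT1-Db1 -0.30, RT1-Ba -0.35 and RT1-DMa -0.67. Most genes of each list used for centring rose on the deposited scale without replicate 4. Which scale is nearer the true levels was not tested. For normal obese minus normal lean testes, where no member passed, RT1-Da turned to -0.076, -0.021 and -0.081 with ribosomal, Sertoli and macrophage centring, and RT1-Ba to 0.0097 with quantile normalization. Leaving out 1 array there gave -0.33 to 0.38 for RT1-Da, -0.086 to 0.069 for RT1-Ba, -0.020 to 0.27 for RT1-Bb and -0.065 to 0.58 for Cd74.

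Deviations from the group mean of same-numbered under-developed and normal obese arrays correlated at 0.077, 0.0069, 0.024 and 0.26. Those of under-developed and lean arrays correlated at 0.21 and 0.083, and those of normal obese and lean arrays at 0.14 and -0.056. Arrays with different numbers were not compared, so whether replicate numbers pair the samples was not tested. With the replicate block 0 genes and 0 members were called in each comparison, and for normal obese minus normal lean testes RT1-Ba turned to 0.079 and RT1-DMa to 0.0028. A filter at the 25th percentile left 7 members and at the median 4. The cause of the changed calls and directions was not tested.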
